A study of Cavia porcellus with 44 samples.

Results

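Genes of the cell cycle and of cell proliferation were examined in liver RNA of 44 female Hartley guinea pigs in 6 diet groups. The members were chosen by symbol: cyclins A, B, D and E, the cyclin-dependent kinases (CDKs) with their inhibitors and partners, CDC6, CDC7, CDC20, the CDC25 family and CDC45, the MCM, KIF, CENP, E2F, AURK, PLK, BUB1, CDCA and NCAP families, and MKI67, TOP2A, PCNA, RRM2 and TYMS. Of the 7747 symbols in the deposited table of variance-stabilized values, 79 were members, and these 79 had 77 distinct count profiles. The choice used names and no measured value. Each member had a total of at least 200 counts over the 44 animals, which a gene that is quiet on low fat feed could reach through the high fat animals alone, so counts over the members are given as descriptions. A further 7 symbols of the same families were in the count table below that total, AURKA and CCNE2 among them, and MKI67, TOP2A, MCM2 and CDKN1A were not analysed here.

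The study used a chow rich in fat, cholesterol and sucrose to induce fatty liver disease in guinea pigs, which like humans depend on dietary vitamin C (vitC), and asked whether low fat feed and vitC altered the course of the disease. LFH animals (n = 8) received low fat feed with high vitC for 32 weeks and were pair-fed to the HFH group. HFH animals (n = 8) received the high fat feed with high vitC ad libitum for 32 weeks. The remaining 4 groups all ate high fat feed low in vitC for their first 16 weeks. HFL/HFL animals (n = 10) kept this feed during the second 16 weeks, and HFL/HFH animals (n = 6) changed to high fat feed with high vitC. In the same period HFL/LFH animals (n = 6) received low fat feed with high vitC, pair-fed to HFL/HFH, and HFL/LFL animals (n = 6) received low fat feed with low vitC, pair-fed to HFL/HFL. Each animal is 1 library made from a piece of the left lateral lobe.

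A dividing cell passes through G1, copies its DNA in S phase, and separates the copies in mitosis after G2. Cyclins switch on the CDKs that drive each step, CDK inhibitors hold them back, and E2F factors turn on the genes of S phase once the retinoblastoma protein has released them. The MCM helicase opens the DNA for copying, condensins compact the chromosomes, the centromere proteins build the kinetochore on which the spindle pulls, and mitotic kinesins move and separate the chromosomes and the daughter cells. Most cells of an adult liver rest outside the cycle, and many can enter it again after injury or loss of tissue.

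Levels are given as CPM (counts scaled to 1000000 per library, by edgeR's effective library sizes) and changes as log2 fold changes with their standard errors from an edgeR quasi-likelihood fit of all animals. An adjusted p is Benjamini-Hochberg adjusted over the 7750 symbols tested, and a gene is called higher or lower where it was under 0.05. Calls are those of edgeR unless another tool is named. Total counts lay between 21133807 and 35427724 per animal, and 3 counts equalled 0.0626 to 0.170 CPM. Hepatocyte markers were abundant, with ALB from 68645 to 171398 CPM in LFH (median 118741) and from 8482 to 62665 CPM in HFH (median 40408). Some symbols had the same counts in every animal and cannot be told apart: CDK11A and CDK11B, CENPS and CENPS.CORT, KIF22 and MAZ, AURKB and CTC1, CDK10 and SPATA33, and MCM8 and X.209. In whole tissue, more cells of a type and more RNA per cell cannot be told apart.

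High fat feed was compared with low fat feed in 3 pairs of groups that share no animals, HFH vs LFH, HFL/HFH vs HFL/LFH and HFL/HFL vs HFL/LFL. In HFH vs LFH, 47 of the 79 members were higher and 6 lower, against 27.7% of all genes higher and 21.7% lower. The corresponding counts in HFL/HFH vs HFL/LFH were 41 higher and 2 lower, against 19.4% and 16.5% of all genes. In HFL/HFL vs HFL/LFL they were 42 and 1, against 19.7% and 18.1%. The same shares of all genes apply to the counts by role and by list given below. The median log2 fold change of the members was 0.75, 0.68 and 0.68 in that order, and that of all genes tested was 0.06, 0.01 and 0.03.

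The calls were unevenly spread over the cycle. Of the 35 members on a list of genes of S phase, G2 and mitosis, 29, 29 and 27 were higher in the 3 comparisons, and their medians were 2.08, 2.27 and 1.42 on the log2 scale. In the other 44 members, which include G1 kinases, CDK inhibitors, transport kinesins, kinases of transcription and also kinetochore proteins such as CENPL, CENPP, CENPQ and CENPX, 18, 12 and 15 were higher and the medians were 0.28, 0.20 and 0.37. In all 3 comparisons 36 members were higher, against 13.4% of all genes, 27 of them from the S, G2 and M phase group, and no member was lower in all 3, against 10.5% of all genes. No member was called in opposite directions by edgeR, and limma voom did so for CENPX, at -0.47 in HFH vs LFH (adjusted p = 0.0078) and 0.45 in HFL/HFH vs HFL/LFH (adjusted p = 0.0172). In 20 members none of the 3 comparisons gave a call by edgeR.

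**Figure D1:**
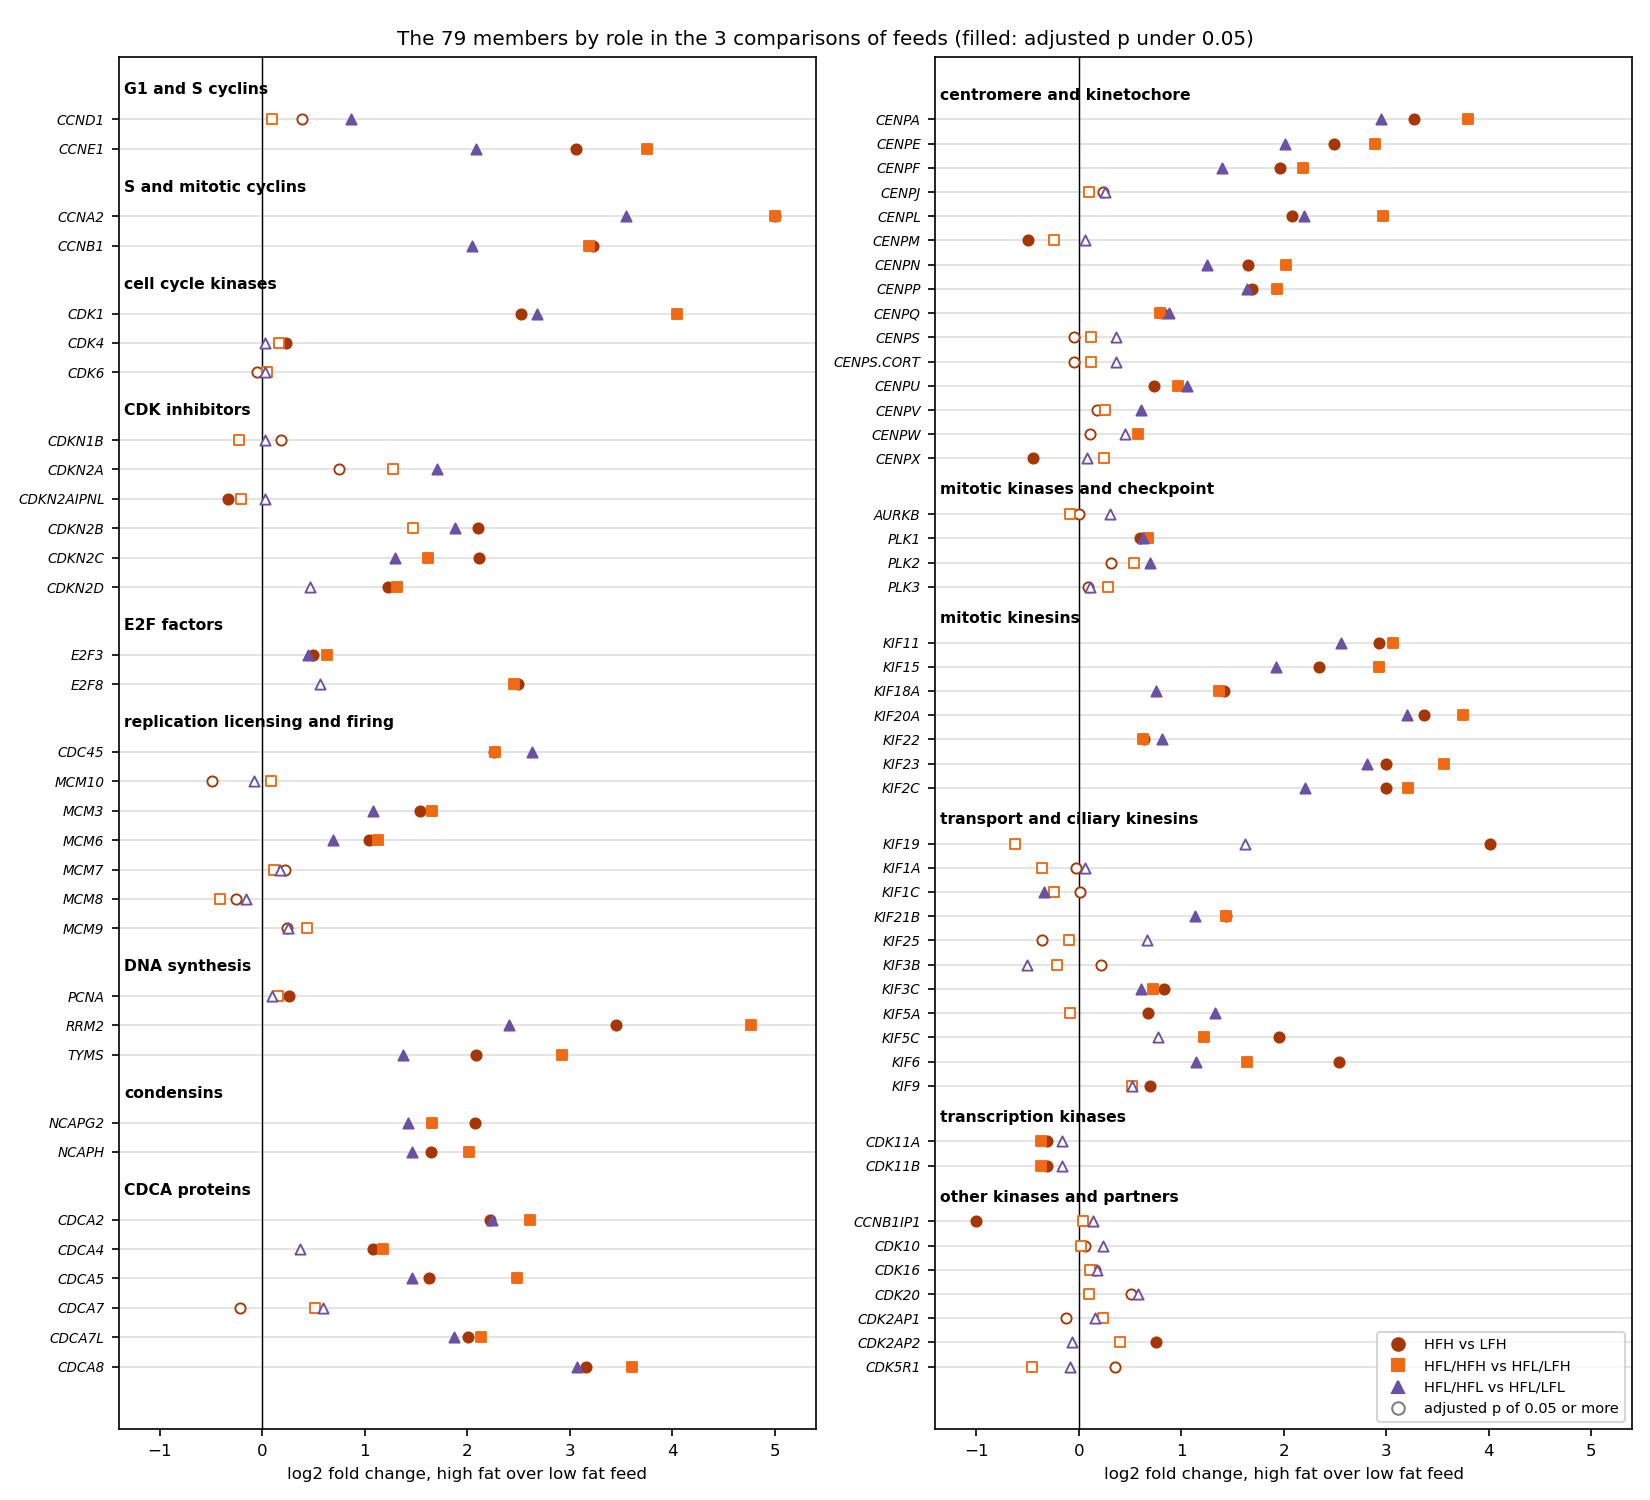
Log2 fold changes of the 79 members, high fat over low fat feed, in HFH vs LFH (circles), HFL/HFH vs HFL/LFH (squares) and HFL/HFL vs HFL/LFL (triangles), grouped by role and filled where the adjusted p was under 0.05. The 7 mitotic kinesins are filled to the right of 0 in all 3 comparisons, while CDK6, MCM7 and AURKB lie close to 0 and are open.

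Per animal the contrast between feeds was seen at single genes. In 16 of the 79 members each of the 24 animals on high fat feed was above each of the 20 animals on low fat feed, against 206 of 7750 genes tested (2.66%). The 16 were CCNA2, RRM2, CDCA2, CDCA5, CDCA8, CENPA, CENPE, KIF2C, KIF11, KIF15, KIF20A, KIF21B, KIF22, KIF23, NCAPG2 and CDKN2C. Between the groups of a pair, 32, 29 and 22 members were higher with no overlap, against 8.84%, 9.88% and 6% of all genes, and 0 members were lower with no overlap, against 8.03%, 6.28% and 3.9%. The mean log2 CPM of the 35 S, G2 and M phase members lay between 1.18 and 2.02 in the animals on low fat feed and between 2.82 and 4.45 in those on high fat feed. This mean is a description of genes that move together and carries no test.

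**Figure D2:**
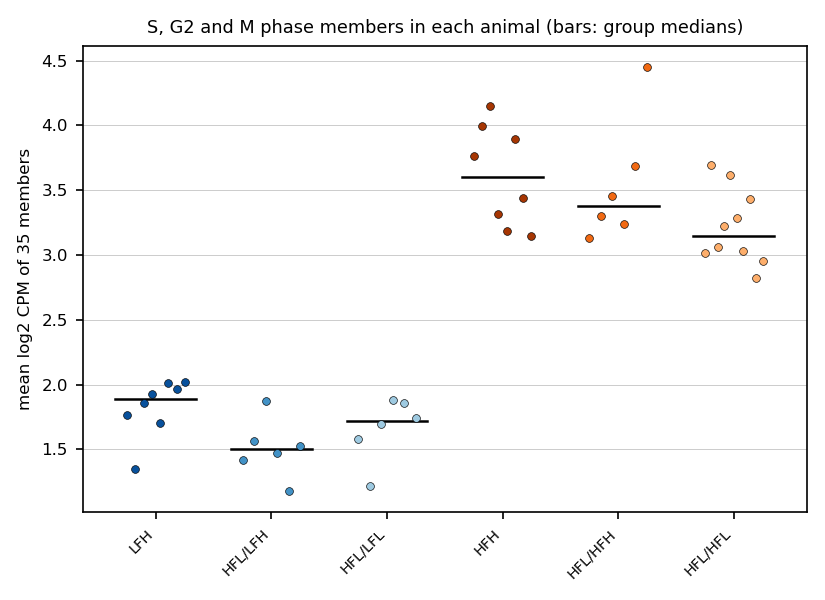
Mean log2 CPM of the 35 S, G2 and M phase members (vertical axis) in each animal, by diet group, with bars at the group medians. The 3 groups on low fat feed (blue) have medians of 1.89, 1.5 and 1.72 and the 3 on high fat feed (orange) 3.60, 3.38 and 3.14, with no overlap between the feeds.

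By its median the pair of cyclins of S phase and mitosis, CCNA2 and CCNB1, had the largest change of the 15 roles in each of the 3 comparisons (4.11, 4.09 and 2.79). CCNA2, cyclin A2, which drives DNA replication and entry into mitosis, was nearly silent on low fat feed, with 0 to 0.306 CPM in LFH (median 0.231), 0 to 0.398 CPM in HFL/LFH (median 0.164) and 0.0406 to 0.531 CPM in HFL/LFL (median 0.245). On high fat feed it ranged from 2.58 to 13.5 CPM in HFH (median 4.04), from 1.54 to 17.9 CPM in HFL/HFH (median 3.83) and from 0.720 to 5.32 CPM in HFL/HFL (median 3.12). No animal on low fat feed had over 12 counts of it and no animal on high fat feed fewer than 17, so the feeds did not overlap. The log2 fold change was 5.0 ± 0.59 in HFH vs LFH (adjusted p = 2.29e-09), 5.0 ± 0.68 in HFL/HFH vs HFL/LFH (adjusted p = 1.45e-07) and 3.54 ± 0.61 in HFL/HFL vs HFL/LFL (adjusted p = 1.18e-05). CCNB1, cyclin B1, the partner of CDK1 in mitosis, had 0 counts in 8 of 20 animals on low fat feed and 6 to 78 counts in those on high fat feed. Its medians were 0.108, 0.0471 and 0.0878 CPM in LFH, HFL/LFH and HFL/LFL, and 1.31, 1.21 and 0.727 CPM in HFH, HFL/HFH and HFL/HFL. CCNB1 rose by 3.23, 3.19 and 2.05 on the log2 scale in the 3 comparisons (adjusted p = 0.000213, 0.00183 and 0.025). The groups did not overlap in HFH vs LFH and overlapped in the other pairs. The last of these calls was lost when HFL/LFL animal 17, 44, 49 or 53 was left out.

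The cyclins of G1 moved unequally. CCNE1, cyclin E1, which starts S phase, was higher in all 3 comparisons, by 3.06 ± 0.59, 3.75 ± 0.71 and 2.09 ± 0.61 (adjusted p = 3.29e-05, 4.24e-05 and 0.00635). Its median was 0.516 CPM in LFH and 2.70 CPM in HFH, without overlap in this pair. CCND1, cyclin D1, which links growth signals to the cycle, was well expressed in every group, with 81.2 to 127 CPM in LFH (median 95.7) and 87.5 to 198 CPM in HFH (median 127). Of the 3 comparisons only HFL/HFL vs HFL/LFL gave a call for CCND1 (0.87 ± 0.19, adjusted p = 0.000367), where it was 64.6 to 101 CPM in HFL/LFL (median 74.1) and 85.9 to 171 CPM in HFL/HFL (median 147). Its change was 0.39 ± 0.18 in HFH vs LFH (adjusted p = 0.0695), a call gained in 6 of 25 alternative fits, and 0.10 ± 0.21 in HFL/HFH vs HFL/LFH (adjusted p = 0.75). The interaction of vitC and feed was 0.77 ± 0.28 (adjusted p = 0.444). HFL/LFH animal 4 had 255 CPM of CCND1 and the other 5 had 75.3 to 134 CPM. Without animal 4 the interaction was 0.44 and the change in HFL/HFH vs HFL/LFH 0.42, and without HFL/LFH animal 3 the latter was -0.0154.

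**Figure D3:**
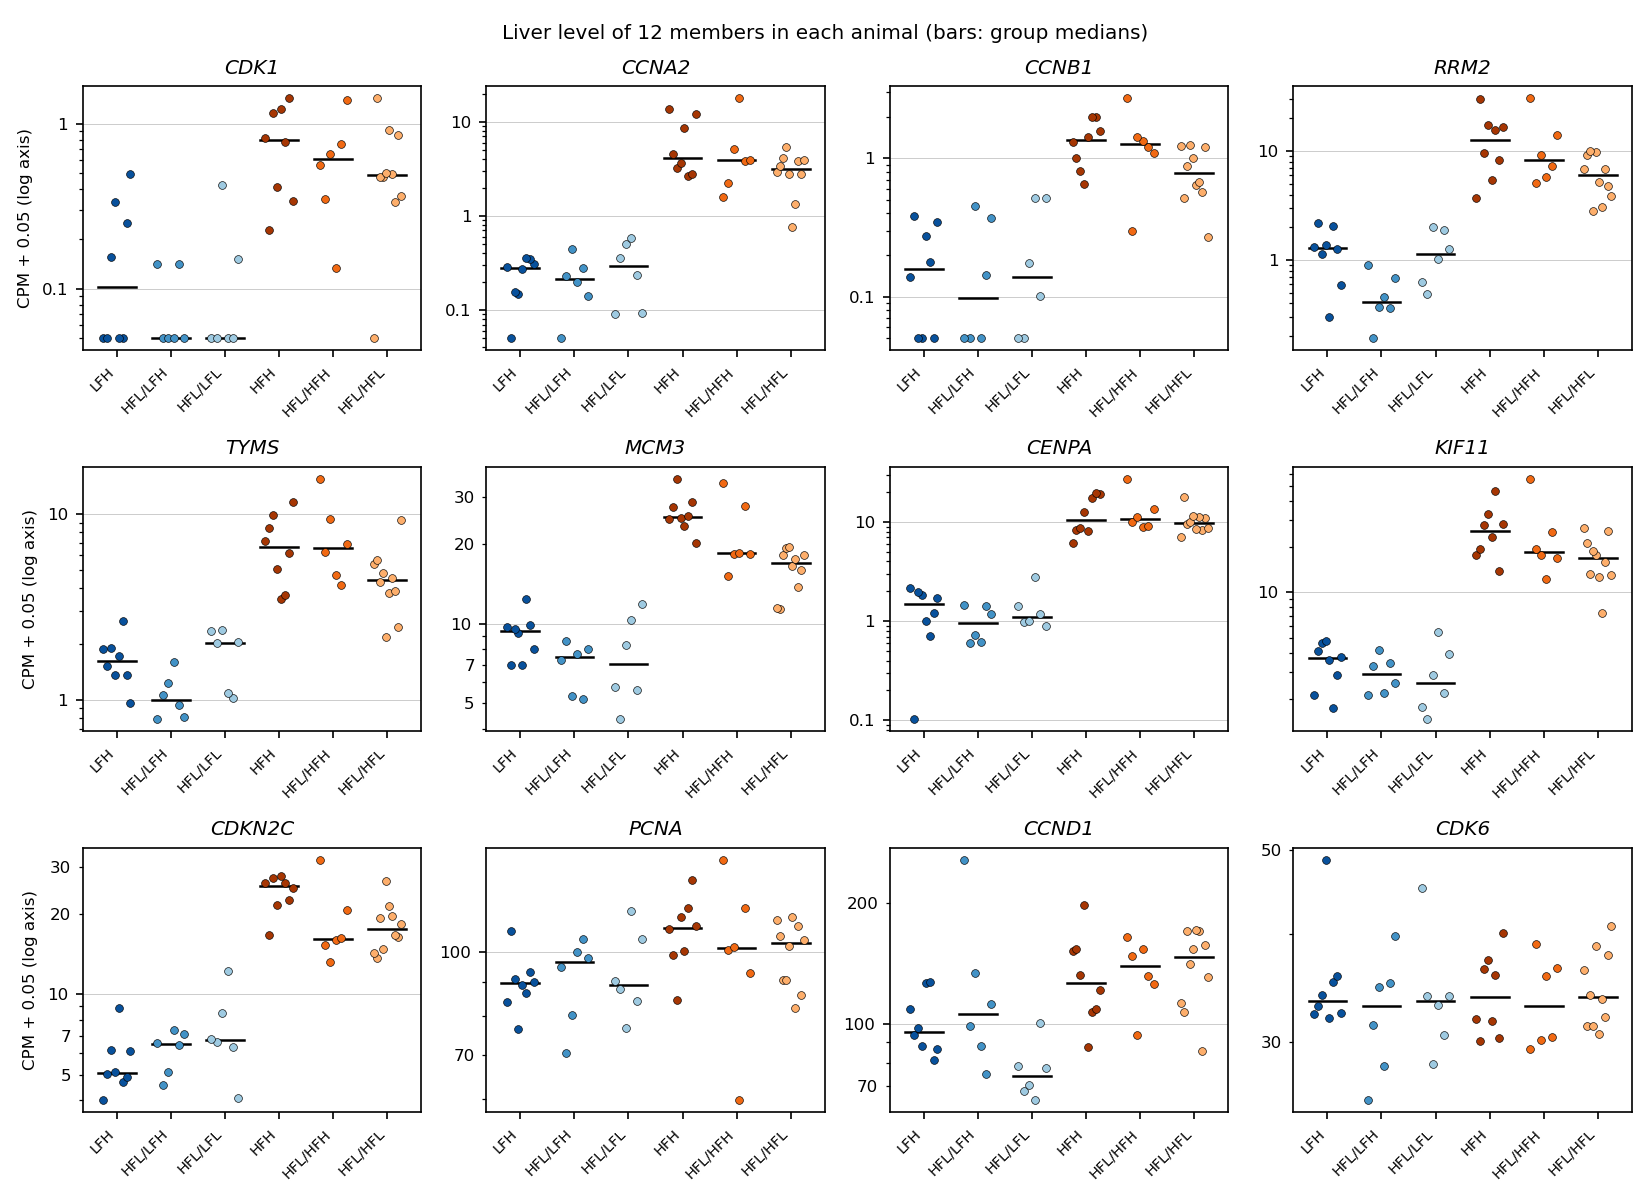
Levels of 12 members in each animal as CPM + 0.05 on log axes, by diet group, with bars at the group medians and points at 0.05 for animals with 0 counts. CCNA2, RRM2, CENPA, KIF11 and CDKN2C have each high fat animal (orange) above each low fat animal (blue), while the groups of PCNA, CCND1 and CDK6 overlap.

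CDK1, the kinase that starts mitosis, rose in all 3 comparisons from very low levels. It was detected at 0 to 9 counts on low fat feed, with 0 counts in 12 of 20 animals, and at 0 to 53 counts on high fat feed, with 0 counts in 1 of 24, and the groups of each pair overlapped. In HFL/LFH the 6 animals held 4 counts together and in HFL/HFH 105. Scaled by effective library size, the ratio was 19.2, with an exact 95% interval of 7.27 to 71.7 for counting error only. The fitted log2 fold change of CDK1 was 2.52 in HFH vs LFH and 4.05 in HFL/HFH vs HFL/LFH. The adjusted p was 0.00891 in HFH vs LFH, 0.00279 in HFL/HFH vs HFL/LFH and 0.0185 in HFL/HFL vs HFL/LFL, where the log2 fold change of 2.68 became 4.55 without HFL/LFL animal 53. The G1 kinases behaved otherwise. CDK4, a partner of the D cyclins, was 126 to 153 CPM in LFH (median 138) and 144 to 183 CPM in HFH (median 165), a small change that was called (0.23 ± 0.06, adjusted p = 0.00246), and it gave no call by edgeR in the other comparisons (0.16 ± 0.07 and 0.03 ± 0.06), the first of which was called by limma voom. CDK6, its close relative, had medians between 33 and 33.8 CPM in the 6 groups and changes of -0.05 ± 0.10, 0.05 ± 0.11 and 0.02 ± 0.10, with no call.

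Of 5 CDK inhibitors, CDKN1B, CDKN2A, CDKN2B, CDKN2C and CDKN2D, 3, 2 and 3 rose in the 3 comparisons and 0 fell. Of all genes 27.7%, 19.4% and 19.7% were higher and 21.7%, 16.5% and 18.1% lower. CDKN2C, the p18 inhibitor of CDK4 and CDK6, was the member with the smallest p in HFH vs LFH, where it ranged from 3.96 to 8.85 CPM in LFH (median 5.02) and from 16.6 to 27.5 CPM in HFH (median 25.4). In the switched groups it was 4.53 to 7.28 CPM in HFL/LFH (median 6.47) and 13.2 to 31.7 CPM in HFL/HFH (median 16.1), and 4.03 to 12.1 CPM in HFL/LFL (median 6.66) and 13.6 to 26.5 CPM in HFL/HFL (median 17.4). None of these pairs overlapped, and the changes were 2.11 ± 0.19, 1.61 ± 0.21 and 1.29 ± 0.19 (adjusted p = 2.41e-12, 7.43e-08 and 1.31e-06). CDKN2D, the p19 inhibitor of the same family, rose in HFH vs LFH (1.23 ± 0.21) and HFL/HFH vs HFL/LFH (1.32 ± 0.24), and was 0.46 ± 0.21 in HFL/HFL vs HFL/LFL (adjusted p = 0.084). CDKN2B (p15) rose in HFH vs LFH and in HFL/HFL vs HFL/LFL, and CDKN2A in the latter, both from medians under 1 CPM on low fat feed. In HFL/HFL vs HFL/LFL the call of CDKN2B was lost without any 1 of 5 animals and that of CDKN2A without any 1 of 3. CDKN2AIPNL, a relative of a CDKN2A-binding protein and no inhibitor itself, fell in HFH vs LFH (-0.33 ± 0.10, adjusted p = 0.00401). CDKN1B, the p27 inhibitor, gave no call by edgeR, with changes of 0.18 ± 0.09, -0.23 ± 0.10 and 0.03 ± 0.09, and was called by limma voom in HFL/HFH vs HFL/LFH and under upper-quartile normalization in HFH vs LFH.

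E2F8, a repressive E2F that is made as cells enter S phase, rose in the comparisons between high vitC groups, by 2.50 ± 0.47 in HFH vs LFH (adjusted p = 2.41e-05) and 2.46 ± 0.54 in HFL/HFH vs HFL/LFH (adjusted p = 0.000313). In HFL/HFL vs HFL/LFL it was 0.56 ± 0.46 (adjusted p = 0.36), and the interaction of vitC and feed in the switched groups was -1.90 ± 0.69 (adjusted p = 0.444). The median in HFL/LFL, 2.14 CPM, was above that in LFH, 0.918 CPM, and in HFL/LFH, 1.25 CPM, with overlap between these groups. In HFL/LFL vs LFH E2F8 was 1.46 ± 0.49 (adjusted p = 0.0553), which DESeq2 called, and in HFL/LFL vs HFL/LFH 1.03 ± 0.53 (adjusted p = 0.469). E2F3, an activating E2F, rose less but in all 3, by 0.50, 0.63 and 0.44, and the third call was lost without HFL/LFL animal 17 or 44.

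Among the genes of DNA replication 2 enzymes that supply nucleotides stood beside the cyclins. RRM2, the regulated subunit of ribonucleotide reductase, ranged from 0.248 to 2.15 CPM in LFH (median 1.23) and from 3.64 to 30.4 CPM in HFH (median 12.7). In the switched groups it was 0.141 to 0.849 CPM in HFL/LFH (median 0.364) and 5.07 to 30.7 CPM in HFL/HFH (median 8.26), and 0.443 to 1.95 CPM in HFL/LFL (median 1.09) and 2.80 to 10.0 CPM in HFL/HFL (median 5.96). Its changes were 3.45 ± 0.44, 4.76 ± 0.56 and 2.41 ± 0.47 (adjusted p = 1.63e-08, 6.60e-09 and 7.00e-05), without overlap in any pair. TYMS, thymidylate synthase, rose by 2.08, 2.93 and 1.37 (adjusted p = 1.49e-07, 1.47e-08 and 0.000514), from medians of 1.58, 0.945 and 1.98 CPM in LFH, HFL/LFH and HFL/LFL to 6.64, 6.54 and 4.38 CPM in HFH, HFL/HFH and HFL/HFL, with overlap in the last pair. PCNA, the sliding clamp of the polymerases, changed little. It had 76.4 to 107 CPM in LFH (median 89.7) and 84.6 to 128 CPM in HFH (median 109), a change of 0.26 ± 0.11 with an adjusted p of 0.0483 that was lost in 16 of 25 alternative fits, and gave no call in the other comparisons (0.15 ± 0.13 and 0.10 ± 0.11).

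The MCM proteins split. MCM3 and MCM6, subunits of the replicative helicase, were higher in all 3 comparisons, MCM3 by 1.54 ± 0.18, 1.66 ± 0.21 and 1.08 ± 0.19 (adjusted p = 1.78e-09, 2.79e-08 and 1.58e-05) and MCM6 by 1.04, 1.13 and 0.68. MCM3 had 6.92 to 12.3 CPM in LFH (median 9.30) and 20.1 to 35.2 CPM in HFH (median 25.3), without overlap. MCM7, a subunit of the same helicase, gave no call at a level of 101 to 144 CPM in LFH (median 120.3) and 124 to 169 CPM in HFH (median 139), with changes of 0.22 ± 0.11, 0.11 ± 0.13 and 0.17 ± 0.12, of which the first was called under upper-quartile normalization. MCM8 and MCM9, which act in DNA repair, and MCM10, an initiation factor, gave no call by edgeR, while limma voom called MCM8 and MCM9 in HFL/HFH vs HFL/LFH. CDC45, which joins the helicase when an origin fires, rose by 2.26, 2.27 and 2.63 from medians under 1 CPM.

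Many genes of chromosome structure and segregation rose. Both condensin members, NCAPG2 and NCAPH, were higher in all 3 comparisons. NCAPG2 ranged from 2.67 to 6.97 CPM in LFH (median 3.89) and from 11.5 to 23.8 CPM in HFH (median 18.2) with no overlap, a change of 2.08 ± 0.23 (adjusted p = 3.71e-10). The CDCA proteins act at several steps of division, and 5, 5 and 4 of the 6 members rose, against 27.7%, 19.4% and 19.7% of all genes. CDCA8, borealin, a subunit of the chromosomal passenger complex, changed by 3.16 ± 0.29, 3.61 ± 0.34 and 3.07 ± 0.32, with adjusted p = 4.72e-12, 5.49e-11 and 6.21e-10. Its levels were 0.430 to 1.25 CPM in LFH (median 0.759), 0.362 to 0.834 CPM in HFL/LFH (median 0.462) and 0.463 to 0.963 CPM in HFL/LFL (median 0.622), and 4.22 to 10.7 CPM in HFH (median 6.65), 4.39 to 14.4 CPM in HFL/HFH (median 5.13) and 3.52 to 8.87 CPM in HFL/HFL (median 4.22). The highest animal on low fat feed, 1.25 CPM, was thus below the lowest on high fat feed, 3.52 CPM. CDCA2 and CDCA5, which act in chromatin reassembly and in sister chromatid cohesion, showed the same separation, and CDCA7 gave no call by edgeR (-0.22 ± 0.33, 0.52 ± 0.38 and 0.59 ± 0.35) and 1 by limma voom, in HFL/HFL vs HFL/LFL.

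Of the 15 centromere and kinetochore members, 8, 9 and 9 rose and 2, 0 and 0 fell. The shares of all genes were 27.7%, 19.4% and 19.7% higher and 21.7%, 16.5% and 18.1% lower. CENPA, the histone that marks the centromere, ranged from 0.0526 to 2.09 CPM in LFH (median 1.43) and from 6.15 to 19.8 CPM in HFH (median 10.5), with changes of 3.27 ± 0.36, 3.80 ± 0.43 and 2.95 ± 0.39 in the 3 comparisons (adjusted p = 4.79e-10, 2.62e-09 and 1.04e-07). CENPE, the kinesin of the kinetochore, ranged from 1.77 to 4.73 CPM in LFH (median 3.17) and from 10.2 to 27.6 CPM in HFH (median 17.1) and changed by 2.49 ± 0.27, 2.90 ± 0.32 and 2.02 ± 0.29 (adjusted p = 3.48e-10, 1.53e-09 and 4.39e-07). Neither gene overlapped in any pair. CENPF, CENPL, CENPN and CENPP rose in all 3, by 1.25 to 2.97 on the log2 scale, and CENPQ and CENPU by 0.74 to 1.06. The calls of CENPU in HFH vs LFH and of CENPQ in HFL/HFH vs HFL/LFH were lost without any 1 of 8 of the 16 animals and any 1 of 6 of the 12 animals, respectively. The 2 that fell in HFH vs LFH were CENPM (-0.50 ± 0.18, adjusted p = 0.0209) and CENPX (-0.44 ± 0.16, adjusted p = 0.0189). Both calls were lost under upper-quartile normalization, and in the other 2 comparisons both genes were between -0.24 and 0.24 with no call by edgeR, while limma voom called CENPX higher in HFL/HFH vs HFL/LFH.

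The 7 mitotic kinesins, KIF2C, KIF11, KIF15, KIF18A, KIF20A, KIF22 and KIF23, were higher in all 3 comparisons, with medians of 2.93, 3.07 and 2.20, and 1 of these calls, KIF18A in HFL/HFL vs HFL/LFL, was lost without HFL/LFL animal 17. KIF11 slides spindle microtubules apart, and its levels were 1.68 to 4.76 CPM in LFH (median 3.63), 2.08 to 4.12 CPM in HFL/LFH (median 2.85) and 1.42 to 5.43 CPM in HFL/LFL (median 2.48). On high fat feed KIF11 had 13.8 to 45.9 CPM in HFH (median 25.4), 12.2 to 55.5 CPM in HFL/HFH (median 18.3) and 7.25 to 26.5 CPM in HFL/HFL (median 16.7). The feeds did not overlap, and the changes were 2.93 ± 0.31, 3.07 ± 0.36 and 2.56 ± 0.33 (adjusted p = 1.38e-10, 5.53e-09 and 7.01e-08). KIF20A and KIF23, which act where the daughter cells part, changed by 3.37 ± 0.38, 3.75 ± 0.45 and 3.21 ± 0.42, and by 3.0 ± 0.30, 3.56 ± 0.36 and 2.81 ± 0.33. The largest adjusted p among these 6 values was 1.01e-07. The change shared by KIF22 and MAZ, whose counts are the same, was smaller, with 122 to 162 CPM in LFH (median 140.4) and 189 to 256 CPM in HFH (median 229), and a log2 fold change of 0.64 ± 0.08, 0.63 ± 0.09 and 0.82 ± 0.08 (adjusted p = 2.56e-09, 2.22e-07 and 2.31e-10). MAZ is a zinc finger transcription factor, so this value is not one of KIF22 alone.

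The kinesins that carry cargo or serve cilia were mixed. Of 11, 7 rose in HFH vs LFH, 4 in HFL/HFH vs HFL/LFH and 4 in HFL/HFL vs HFL/LFL, where 1 fell. In that order 27.7%, 19.4% and 19.7% of all genes were higher, and 18.1% were lower in the last comparison. KIF21B, which regulates microtubule growth, rose in all 3, with 8.46 to 16.5 CPM in LFH (median 14.3) and 27.2 to 44.2 CPM in HFH (median 34) and changes of 1.44 ± 0.15, 1.44 ± 0.18 and 1.13 ± 0.16 (adjusted p = 1.96e-10, 1.47e-08 and 4.38e-07), without overlap. KIF3C and KIF6 also did so. KIF19, a kinesin of cilia, was called in HFH vs LFH (adjusted p = 0.00286) on 0 to 56 counts against 0 counts in 7 of 8 LFH animals and 5 in the other, and its log2 fold change of 4.01 became 6.88 without that animal, LFH 64. KIF1C, a transport kinesin, was the member that fell in HFL/HFL vs HFL/LFL, by 0.34 on the log2 scale (adjusted p = 0.0175).

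Of the mitotic kinases, PLK1, polo-like kinase 1, rose in all 3 comparisons by 0.60 ± 0.20, 0.68 ± 0.23 and 0.63 ± 0.21 (adjusted p = 0.00987, 0.0161 and 0.0144), with overlap between the groups of each pair. The second of these calls was lost without HFL/LFH animal 58 and the third without HFL/LFL animal 13. The symbol AURKB, Aurora kinase B, gave no call and lay at 141 to 222 CPM in LFH (median 174) and 137 to 274 CPM in HFH (median 155). Its counts are those of CTC1, a telomere protein, so this value is not one of the kinase alone. PLK2, a stress-induced relative, rose in HFL/HFL vs HFL/LFL (0.70 ± 0.20, adjusted p = 0.00516) and was 0.54 ± 0.22 in HFL/HFH vs HFL/LFH (adjusted p = 0.0515), where DESeq2 and limma voom called it. CDK11A and CDK11B, kinases of transcription and splicing with shared counts, fell by 0.31 in HFH vs LFH and by 0.37 in HFL/HFH vs HFL/LFH on the log2 scale (adjusted p = 0.0182 and 0.0189). The first call was lost under upper-quartile normalization and the second without HFL/HFH animal 15, HFL/LFH animal 33 or HFL/LFH animal 43, with only the groups compared and under limma voom. CCNB1IP1, a ubiquitin ligase that binds cyclin B1, fell in HFH vs LFH (-1.0 ± 0.40, adjusted p = 0.033), a call that was lost without any 1 of 6 animals.

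Of the calls in the 3 comparisons, 44 of 53, 36 of 43 and 37 of 43 held in each of the alternative fits, and 30 of the 36 members higher in all 3 did so in each comparison. HFL/HFH animal 15 had the highest level of its group in 28 of the 35 S, G2 and M phase members, and without it the change of CCNA2 in HFL/HFH vs HFL/LFH went from 5.0 to 4.21. Without HFH animal 9 the change of CCNE1 in HFH vs LFH went from 3.06 to 2.44.

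The question of vitC was asked at each feed. At low fat feed, HFL/LFL vs HFL/LFH, 0 of 79 members were called by edgeR, against 0.219% of all genes. DESeq2 called 2 and limma voom 0, and 10 members had an unadjusted p under 0.05, 12.7% of the members against 11% of all genes. The members' median was 0.00 on the log2 scale, and that of the S, G2 and M phase members 0.13, with 0.07 without HFL/LFH animal 3 and 0.25 without HFL/LFH animal 33. Macrophage markers were positive in 9 of 9 (median 0.74) and stellate cell and fibroblast markers in 6 of 6 (0.60). Positive values were also seen in 5 of 5 endothelial (0.29), 4 of 4 erythroid (1.0) and 6 of 8 neutrophil markers (0.99). HBA1 and HBA2 of the erythroid list share their counts. Bile duct markers were positive in 5 of 6 (0.34), 1 of them called higher. T cell and NK cell markers were positive in 8 of 13 (0.09) and B cell and plasma cell markers in 4 of 8 (-0.04). Hepatocyte markers were negative in 3 of 5 (-0.11), and 1 of the 5 was called higher. The part of these lists was not tested. KIF5A, a neuronal cargo kinesin, had the smallest p (-1.28 ± 0.32, adjusted p = 0.0645), followed by CCND1 (-0.73 ± 0.21, adjusted p = 0.122), and these 2 were the members that DESeq2 called. Without HFL/LFH animal 4 the change of CCND1 was -0.41 (adjusted p = 0.525), and KIF5A was called without LFH animal 5, HFL/LFL animal 44 or HFL/LFH animal 58, with adjusted p = 0.0382 to 0.04996. CCND1 was 64.6 to 101 CPM in HFL/LFL (median 74.1) and 75.3 to 255 CPM in HFL/LFH (median 106), with overlap. RRM2 was 1.41 ± 0.54 (adjusted p = 0.269).

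At high fat feed, HFL/HFL vs HFL/HFH, no member was called by edgeR, DESeq2 or limma voom, against 0.0129% of all genes by edgeR, and 13 members had an unadjusted p under 0.05, against 3.37% of all genes. Of the 35 S, G2 and M phase members 32 had a negative log2 fold change, with a median of -0.40, where the median of all genes was 0.00. TYMS had 2.13 to 9.22 CPM in HFL/HFL (median 4.38) and 4.13 to 15.4 CPM in HFL/HFH (median 6.54), a difference of -0.77 ± 0.28 (unadjusted p = 0.0101, adjusted p = 0.9997). RRM2 was -0.95 ± 0.40 and CENPF -0.63 ± 0.23, with adjusted p = 0.9997 and 0.9997. The groups overlapped in each of these genes. HFL/HFH animal 15, at 4.45, had the highest mean level of the S, G2 and M phase members of all 44 animals. Without it 24 of the 35 were negative, with a median of -0.08 and 0 members of the 35 at an unadjusted p under 0.05 (10 with it), and the differences of TYMS, RRM2 and CENPF were -0.45, -0.41 and -0.25. In the same comparison the erythroid markers were negative in 4 of 4 (median -1.10) and the bile duct markers in 6 of 6 (median -0.23). Endothelial markers were negative in 4 of 5 (-0.02) and neutrophil markers in 5 of 8 (-0.10). Stellate cell and fibroblast markers were negative in 3 of 6 (0.01). Macrophage markers were positive in 6 of 9 (0.19) and hepatocyte markers in 4 of 5 (0.06). T cell and NK cell markers were positive in 10 of 13 (0.14) and B cell and plasma cell markers in 6 of 8 (0.15). No marker was called, and the part of these lists was not tested.

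The interaction, which tests whether the change with feed differed between low and high vitC, gave 0 calls by edgeR, DESeq2 and limma voom, against 0% of all genes by edgeR. In this fit 12 of 79 members had an unadjusted p under 0.05, against 8.23% of all genes. RRM2 had the smallest p among the members, with a difference of -2.36 ± 0.67 between the 2 log2 fold changes (adjusted p = 0.255), followed by TYMS with -1.55 ± 0.45 (adjusted p = 0.268), and neither passed the correction. The median difference of the S, G2 and M phase members was -0.55 and that of all genes -0.01. Without HFL/HFH animal 15 it was -0.37, with 23 of 35 negative in place of 28 and 3 at an unadjusted p under 0.05 in place of 8. Erythroid markers were negative in 4 of 4 (median -2.1), macrophage markers in 9 of 9 (-0.49) and neutrophil markers in 6 of 8 (-1.19). Stellate cell and fibroblast markers were negative in 6 of 6 (-0.58) and bile duct markers in 5 of 6 (-0.64). Endothelial markers were negative in 4 of 5 (-0.31). Hepatocyte markers were positive in 3 of 5 (0.18) and T cell and NK cell markers in 7 of 13 (0.06). B cell and plasma cell markers were positive in 4 of 8 (0.10). No marker was called, and the part of these lists was not tested.

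**Figure D4:**
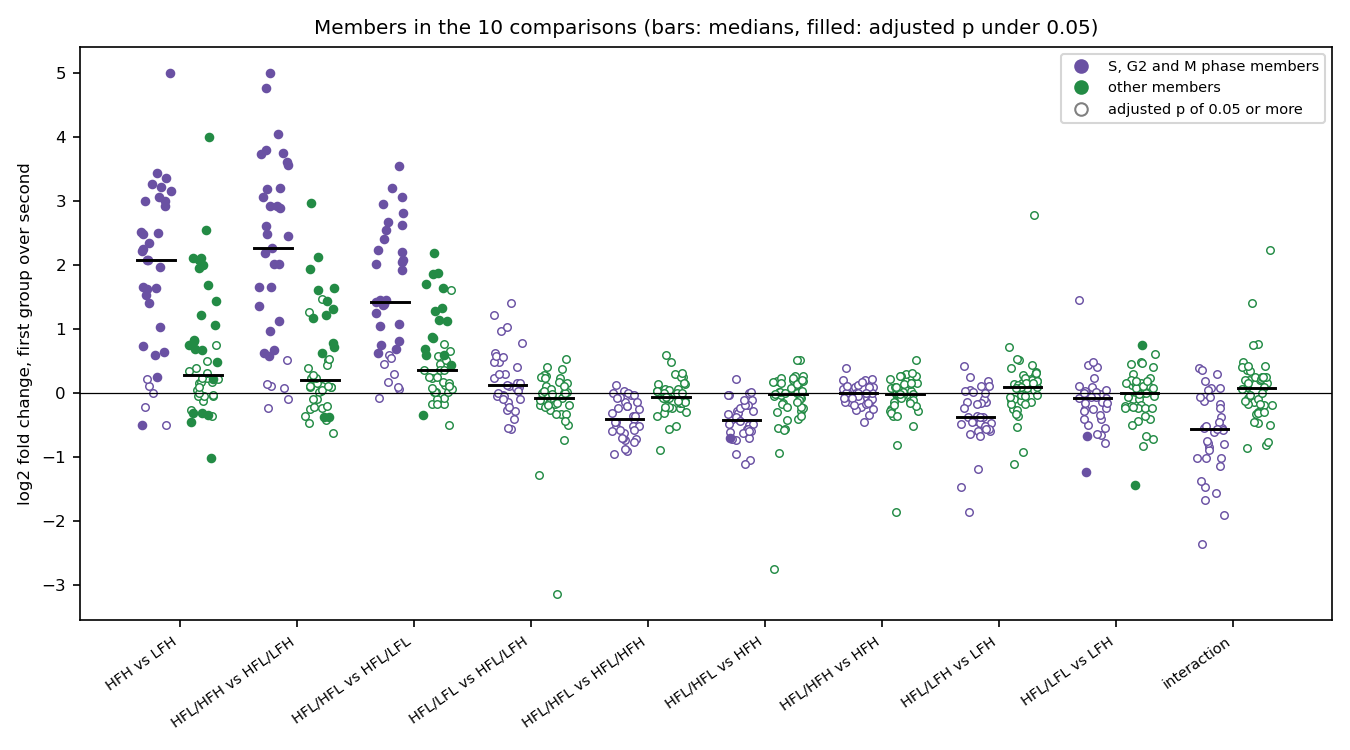
Log2 fold changes of the members, first group over second, in the 10 comparisons, with S, G2 and M phase members in purple, other members in green, bars at medians and filled points where the adjusted p was under 0.05. Calls stand in the 3 comparisons of feeds at the left, with 1 in HFL/HFL vs HFH and 4 in HFL/LFL vs LFH.

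HFL/HFL and HFL/HFH were also set beside HFH, which had high fat feed with high vitC throughout. In HFL/HFL vs HFH 1 member was lower, against 0.155% of all genes, and 0 were higher, against 0.116%. The member called was MCM3, which had 11.3 to 19.4 CPM in HFL/HFL (median 17) and 20.1 to 35.2 CPM in HFH (median 25.3) with no overlap (-0.70 ± 0.16, adjusted p = 0.04). MCM3 was the only gene of the 7750 tested with no overlap in this direction (0.0129%). An unadjusted p under 0.05 was seen in 22 members, against 17.3% of all genes. The call was lost without any 1 of 11 animals, and limma voom called 10 members. In this comparison 32 of the 35 S, G2 and M phase members had a negative log2 fold change, with a median of -0.42 (-0.26 without HFH animal 18), and the comparison shares the HFL/HFL animals with the one above. Erythroid markers were negative in 4 of 4 (median -0.85) and stellate cell and fibroblast markers in 5 of 6 (-0.34). Bile duct markers were negative in 4 of 6 (-0.58) and endothelial markers in 4 of 5 (-0.29). Macrophage markers were positive in 7 of 9 (0.49), neutrophil markers in 7 of 8 (0.84) and hepatocyte markers in 4 of 5 (0.21). T cell and NK cell markers were positive in 12 of 13 (0.16) and B cell and plasma cell markers in 5 of 8 (0.05). No marker was called, and the part of these lists was not tested. In HFL/HFH vs HFH no member was called by edgeR, DESeq2 or limma voom, against 0% of all genes by edgeR, with 5 members at an unadjusted p under 0.05 against 6.01% of all genes, and the median of the S, G2 and M phase members was 0.00 (-0.29 without HFL/HFH animal 15).

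The groups returned to low fat feed were compared with LFH, which never left it. In HFL/LFH vs LFH no member was called by edgeR, DESeq2 or limma voom, against 0.361% of all genes by edgeR, and 13 members had an unadjusted p under 0.05, against 10.4% of all genes. The S, G2 and M phase members had a median of -0.37. Beside them 3 of 4 erythroid markers (median -1.4) and 5 of 6 stellate cell and fibroblast markers (-0.23) were negative. Of the stellate cell and fibroblast list 1 marker was called lower. Endothelial and hepatocyte markers were negative in 5 of 5 each (-0.15 and -0.24) and neutrophil markers in 5 of 8 (-0.31). Macrophage markers were negative in 5 of 9 (-0.09), and 3 of the 9 were called higher. Bile duct markers were positive in 5 of 6 (0.64), 1 of them called higher. T cell and NK cell markers were positive in 9 of 13 (0.27) and B cell and plasma cell markers in 6 of 8 (0.14). The part of the lists was not tested. RRM2 was 0.141 to 0.849 CPM in HFL/LFH (median 0.364) and 0.248 to 2.15 CPM in LFH (median 1.23), with overlap (-1.47 ± 0.51, adjusted p = 0.256), and CDCA7 was -1.19 ± 0.37 (adjusted p = 0.171). In HFL/LFL vs LFH 1 member was higher and 3 were lower, against 4.43% and 3.48% of all genes, and their groups overlapped. At an unadjusted p under 0.05 there were 11 members, against 22.8% of all genes. Markers called higher were 5 of 9 of the macrophage list, 3 of 6 of the bile duct list, 2 of 8 each of the neutrophil list and the B cell and plasma cell list, 1 of 13 of the T cell and NK cell list and 1 of 6 of the stellate cell and fibroblast list, and their part was not tested. CDK2AP2, which binds a partner of CDK2, was 17.6 to 61.7 CPM in HFL/LFL (median 24.7) and 12.2 to 27.6 CPM in LFH (median 21.0) (0.76 ± 0.21, adjusted p = 0.0187). CENPM, a kinetochore protein, was -0.67 ± 0.20 (adjusted p = 0.0304), CDCA7, a chromatin protein, -1.23 ± 0.37 (adjusted p = 0.0309) and CCNB1IP1 -1.43 ± 0.45 (adjusted p = 0.0386). The 4 calls were lost when only these groups entered the fit, and without HFL/LFL animal 49. CCNA2, CCNB1, RRM2, TYMS and CDK1 gave no call in either comparison, with standard errors of 0.32 to 1.09.

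Other genes of proliferation, listed by function outside these families, were counted in the same way. Of 105 listed, 68 were tested, and 51, 51 and 45 rose and 1, 4 and 3 fell in the 3 comparisons of feeds, with medians of 1.35, 1.25 and 1.07. The shares of all genes were 27.7%, 19.4% and 19.7% higher and 21.7%, 16.5% and 18.1% lower. TK1, thymidine kinase, which salvages thymidine for DNA synthesis, had 0.398 to 3.07 CPM in LFH (median 1.11) and 9.82 to 37.5 CPM in HFH (median 22.7), without overlap. TK1 changed by 4.09 ± 0.30, 3.16 ± 0.32 and 2.80 ± 0.30 (adjusted p = 9.56e-15, 3.21e-10 and 1.59e-09). PBK, a mitotic kinase, rose by 2.75, 2.60 and 2.52, TACC3, a spindle protein, by 2.40, 2.34 and 2.01, TROAP by 3.08, 3.60 and 3.25, and PTTG1, securin, by 3.10, 3.57 and 3.24. The groups of a pair did not overlap in any of these 5 genes.

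In a list of genes of cell cycle checkpoints and arrest, 13 of 32 listed were tested, and 6, 6 and 5 rose while 1, 2 and 1 fell. Of all genes 27.7%, 19.4% and 19.7% were higher and 21.7%, 16.5% and 18.1% lower. The lowest log2 fold changes of the list, all called, were -1.88, -2.89 and -2.27, and MDM4, a relative of MDM2, fell in HFL/HFH vs HFL/LFH (-0.29 ± 0.12, adjusted p = 0.0491). GADD45A, induced by DNA damage and other stress, had 3.74 to 15 CPM in LFH (median 7.74) and 24.1 to 62.1 CPM in HFH (median 33.6), and changed by 2.1 ± 0.20, 1.94 ± 0.23 and 1.68 ± 0.22 (adjusted p = 2.47e-11, 1.24e-08 and 6.04e-08). No pair overlapped. BTG1, an antiproliferative factor, and MDM2, a ubiquitin ligase, rose in all 3, BTG1 by 0.96, 0.76 and 0.41 and MDM2 by 0.62, 0.69 and 0.73. TFDP1, the partner of E2F factors, rose in both comparisons at high vitC, by 0.89 and 0.52, and was 0.23 ± 0.16 (adjusted p = 0.278) in HFL/HFL vs HFL/LFL.

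Some markers of other cell types moved with feed beside these genes. In the 3 comparisons 27.7%, 19.4% and 19.7% of all genes were higher and 21.7%, 16.5% and 18.1% lower. All 6 tested of 11 listed bile duct cell markers were higher in all 3 comparisons, and their sum was 148 to 385 CPM in LFH and 819.7 to 1389 CPM in HFH per animal, without overlap. Of the 4 tested of 11 listed erythroid markers, HBA1 and HBA2 (which share their counts), ALAS2 and TFRC, 4, 4 and 3 were higher. Their sum, which holds the shared counts for both HBA1 and HBA2, was 525 to 3540.4 CPM in LFH, 1924 to 26016 CPM in HFH and 489 to 10144 CPM in HFL/HFL. In the stellate cell and fibroblast list 4, 3 and 3 of 6 tested genes were higher and 1, 0 and 0 lower, with sums of 421 to 826 CPM in LFH and 875 to 2697 CPM in HFH. In the macrophage list 5, 5 and 5 of 9 were higher and 2, 1 and 1 lower, and in the hepatocyte list 5, 2 and 3 of 5 were lower. Of the T cell and NK cell list (13 tested) 1, 1 and 0 were higher and 1, 1 and 1 lower, and of the B cell and plasma cell list (8 tested) the counts were the same. In the endothelial list 1, 0 and 0 of 5 were higher and 1, 1 and 4 lower. In the neutrophil list 0, 3 and 1 of 8 were higher and 0 lower, and MPO, a defining neutrophil gene, was at 0 in all 6 HFL/LFL animals. The part of these lists in the changes of the members was not tested.

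**Figure D5:**
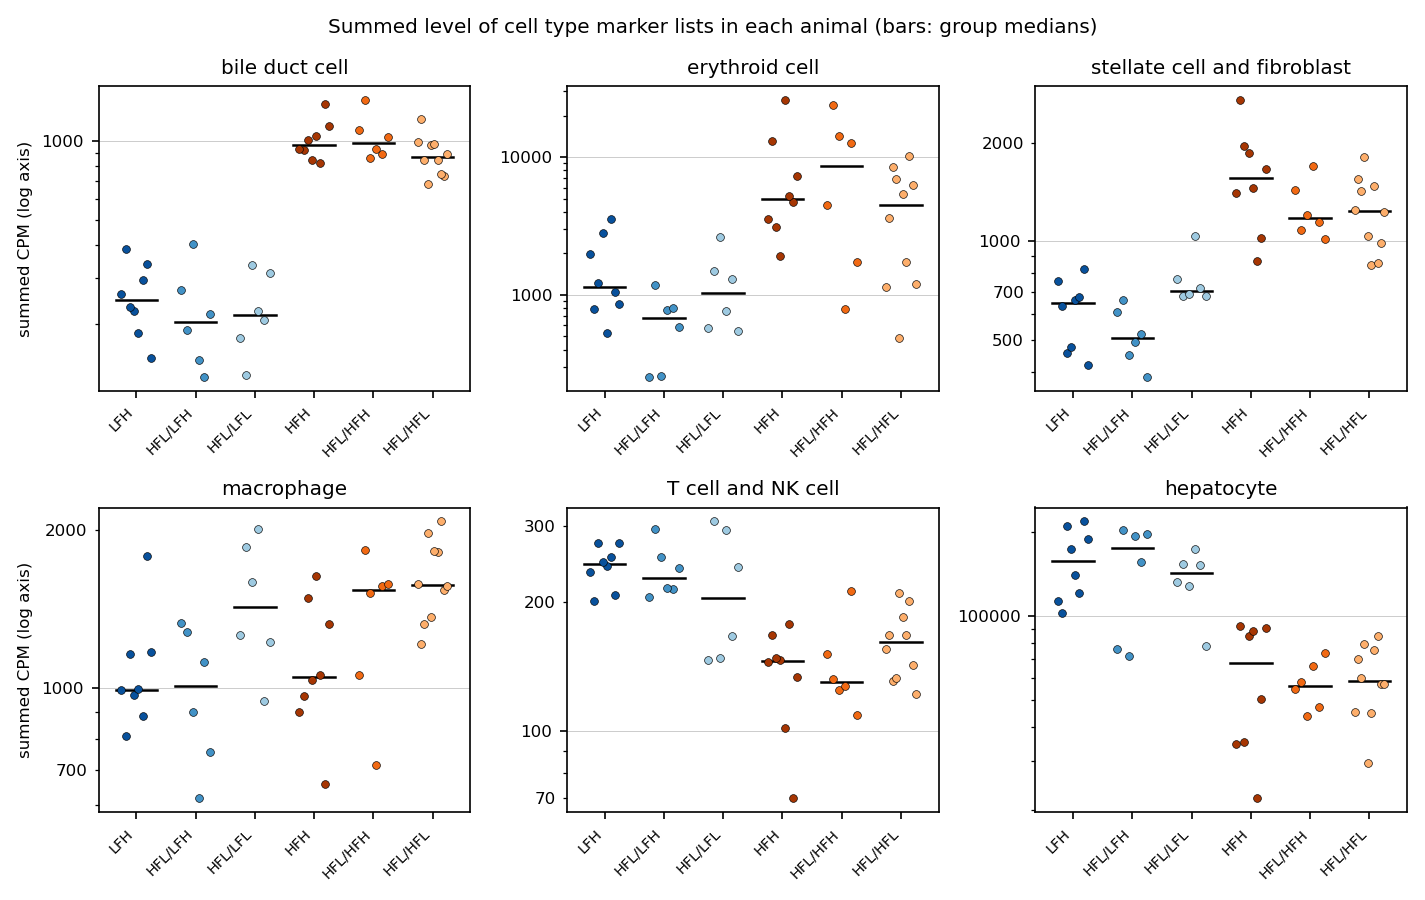
Summed CPM of 6 lists of cell type markers in each animal on log axes, by diet group, with bars at the group medians. The bile duct sum separates high fat (orange) from low fat (blue) animals, the erythroid and macrophage sums overlap between feeds, and the hepatocyte sum is 22065 to 91782 CPM in HFH against 102524 to 218829 CPM in LFH, with overlap in the other 2 pairs, where HFL/HFH reaches 73291 and HFL/LFH starts at 71752 CPM, and HFL/HFL reaches 85012 and HFL/LFL starts at 77967 CPM.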

How the data were processed

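RNA was extracted from the left lateral liver lobe of 44 animals, and oligo-dT selected mRNA was sequenced. According to the paper's methods and the submitters' processing notes, the authors trimmed reads with Trimmomatic 0.38.0 after bcl2fastq 2.19, aligned them with HISAT2 2.1.0 to the guinea pig genome Cav.Por.3.0 and assembled them with StringTie 2.1.1, and they named genes by their human orthologues. The step from StringTie to counts is not given in the sources used here. The authors deposited whole-number counts for 11967 symbols per animal, which were not normalized, and a second table of variance-stabilized values on a log2-like scale, made with DESeq2, for 7747 symbols with a total of at least 200 counts. Several guinea pig genes can share 1 human symbol and reads can be split between near copies, which limits single symbols. Total counts lay between 21133807 and 35427724 per animal.

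Groups were taken from the labels, and each animal was 1 replicate. The 7750 symbols with at least 200 counts in all were fitted in R 4.3.3 with edgeR 4.0.16 (TMM, glmQLFit, glmQLFTest, all animals in 1 model with 1 coefficient per group), two-sided, with Benjamini-Hochberg adjustment and a threshold of 0.05. The standard errors are those of the fitted log2 fold changes. The study's own test was DESeq2. DESeq2 1.42.0, limma 3.58.1 (voom with quality weights, and the variance-stabilized values), other normalizations and filters, only the groups compared, symbols with identical counts taken once, and each animal left out in turn were the alternatives. The steps were tested on simulated data. Of the 79 members, 75 matched a RefSeq symbol of the guinea pig assembly mCavPor4.1, used for names alone.

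The members, gene lists and tests were chosen with earlier results of these data known. Named genes were CDK1, CCNA2, CCNB1, CCND1, PCNA, RRM2 and TYMS, the 10 members with the smallest p in each comparison of feeds, those called higher in all 3 with the smallest p, the members called in the other comparisons, and the 5 genes with the smallest p in HFH vs LFH of each of the 2 lists of other genes, of which 1 is not reported here. Any other gene was named for its role after its values were seen. Cell type markers were counted in 9 lists. Intervals and limits from counts cover counting error only, since PCR copies are not separate molecules.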

Additional observations from a re-analysis of the deposited data

Results flagged for a closer look

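Single animals that stood far from the rest of their group were looked for in 23 named genes and 6 groups, 138 sets in all, by the gap to the next animal relative to the range of the group. Chance marks about 1 in 20 such sets where values are normally distributed. Here 21 were marked, each at its highest animal. The rule was applied to CPM, whose distribution was not tested, so the 21 cannot be set against that rate. The sets are not independent, since the genes move together.

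HFL/HFH animal 15 accounted for 10 of them. It had 17.9 CPM of CCNA2, 18.3 CPM of CDCA2, 14.4 CPM of CDCA8, 27.1 CPM of CENPA and 34.6 CPM of CENPE. It also had 55.5 CPM of KIF11, 36.3 CPM of KIF20A, 33.9 CPM of KIF23, 34.5 CPM of NCAPG2 and 30.7 CPM of RRM2. Without this animal the change of CCNA2 in HFL/HFH vs HFL/LFH was 4.21 on the log2 scale, against 5.0 with it.

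In HFL/HFL, animal 31 stood apart at 9.07 CPM of CDCA2, 17.9 CPM of CENPA and 19.9 CPM of KIF20A, and animal 52 at 20.2 CPM of KIF23 and 9.22 CPM of TYMS. The other marked values were spread over the groups. They were CCND1 in HFL/LFH animal 4 with 255 CPM, CDCA7 in HFH animal 18 with 69.2 CPM, CDK1 in HFL/LFL animal 53 with 0.375 CPM, CDKN2C in LFH animal 79 with 8.85 CPM, CENPA in HFL/LFL animal 44 with 2.74 CPM and KIF21B in HFL/LFH animal 43 with 21.6 CPM.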

How the results depend on the processing

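Members called kept their direction in every alternative in the 3 comparisons of feeds, and 44 of 53, 36 of 43 and 37 of 43 calls held in each. The number called was 52 to 53, 39 to 52 and 43 to 45 with other tools, scalings and filters, and 49 to 54, 38 to 46 and 40 to 45 with each animal left out. In HFL/LFL vs HFL/LFH, DESeq2 called 2 members and leaving out an animal of these groups gave 0 to 1, with 1 without HFL/LFL animal 44 or HFL/LFH animal 58. In HFL/HFL vs HFH the number was 0 with only the groups compared, 2 with DESeq2, 10 with limma voom and 0 to 2 with an animal left out, 0 in 11 of these fits and 2 without HFH animal 88. In HFL/LFL vs LFH it was 0 with only the groups compared, 6 with DESeq2, and 0 to 6 with an animal left out, with 0 without HFL/LFL animal 49, 1 without HFL/LFL animal 44 and 2 without LFH animal 25 or HFL/LFL animal 53 or 68. The change of CCND1 in HFL/HFH vs HFL/LFH, which was never called, ran from -0.0154 to 0.42 with an animal left out, and was negative without HFL/LFH animal 3. The causes were not tested. Of 1376 alternative values for 58 named results, 1308 kept direction and side of the threshold, 61 lost a call, 6 gained one and 1 changed direction. Fold changes of low genes moved with single animals, CDK1 in HFL/HFL vs HFL/LFL to 4.55 without HFL/LFL animal 53, CCNE1 to 2.75 without HFL/LFL animal 68, and CCNB1 in HFL/HFH vs HFL/LFH to 3.86 without HFL/LFH animal 33. Depth limits genes under the 0.0626 to 0.170 CPM that 3 counts equal. No paired analysis was possible because the groups hold different animals and share no numbers.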

Other observations

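Outside the member families, FOXM1, a transcription factor that drives genes of mitosis, rose by 3.32 ± 0.38, 3.64 ± 0.45 and 2.71 ± 0.41 in the 3 comparisons of feeds (adjusted p = 1.54e-09, 2.15e-08 and 1.51e-06). No gene of its list was lower in all 3, against 10.5% of all genes. The genes of that list that fell in at least 1 comparison were of replication and of the spindle checkpoint. GINS1, a subunit of the replicative helicase, fell in HFH vs LFH (-0.73 ± 0.13, adjusted p = 1.66e-05) and HFL/HFH vs HFL/LFH (-0.45 ± 0.16, adjusted p = 0.0209) and was -0.14 ± 0.14 in HFL/HFL vs HFL/LFL. RFC1, a clamp loader subunit, fell in both comparisons of switched groups, and GINS2 and MAD2L1, a checkpoint protein, in HFL/HFH vs HFL/LFH. GMNN, geminin, which blocks a second round of replication, fell in HFL/HFL vs HFL/LFL (-0.52 ± 0.15, adjusted p = 0.00465), as did RFC5. These genes were picked after their values were seen.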
